A study of Mus musculus with 3 samples.

Results

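The 4 JAK kinase genes Jak1, Jak2, Jak3 and Tyk2 and the STAT factor genes Stat2, Stat3, Stat5a, Stat5b and Stat6 were described in control hematopoietic stem and progenitor cells (HSPCs) of mouse bone marrow. These 9 genes were chosen by symbol, all 9 have an entry, and they are 9 of 24421 gene entries in each file. Other STAT genes were not analysed here. The 3 libraries came from 1 group, C57BL/6 mice of the genotype Cicflox/flox that had been given tamoxifen, a drug used to switch on inducible Cre recombinases. The labels name no Cre transgene, age or number of animals for these controls, so their spread may be technical and p-values measure only the differences between these samples. The cells were sorted as Lin- cKit+ Sca-1+ after enrichment on c-Kit beads. The study asks what loss of Capicua (Cic), a transcriptional repressor, does to early T cells. Its other mouse group was not analysed here, so all values are a baseline without a contrast of genotypes.

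JAK kinases sit on the inner ends of cytokine receptors. When a cytokine brings receptor chains together, the kinases activate each other and phosphorylate the receptor, STAT proteins dock there and are phosphorylated in turn, and paired STATs enter the nucleus and bind DNA. In blood stem cells this route carries the signals of interleukins, colony-stimulating factors and interferons.

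All 9 genes were expressed in all 3 libraries. Jak1 was the highest and Tyk2 the lowest per kilobase of exons. For 8 of the 9 genes the highest library lay at most 1.31-fold above the lowest. Stat6 was the exception: scaled to gene counts, it was 2.23-fold higher in library 1 than the mean of libraries 2 and 3, which differed little from each other. Stat5b made up 59.3% of the counts of the STAT5 pair in library 1 and 49.1% in library 3. None of the 9 genes, Stat6 included, passed the main edgeR test of variability over all genes, described below.

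Gene counts came to 25097769 to 30718562 per library, and 12965 genes reached a mean of at least 1 CPM (counts scaled to the total of gene counts). All 9 members did so, as did 53.1% of all gene entries. The sort markers were present, with 826 ± 71.0 CPM for Kit and 103 ± 9.50 CPM (SD, n = 3) for the Sca-1 gene Ly6a. Cic was counted at 168, 139 and 120 CPM in libraries 1, 2 and 3, over the whole gene and so without information on the flanked exons. Library 1 stood apart: 653 and 671 genes were over 2-fold away from libraries 2 and 3, against 311 between those. It also held more counts of the ribosomal RNA precursor Rn45s, 11.8% against 8.20% and 7.91%. In bulk samples, fewer cells of a type and less RNA per cell cannot be told apart.

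The 4 kinases share the stretch that switches them on. Coding bases of their activation loops are shown because the tandem tyrosine codons, in capitals, mark the site whose phosphorylation activates each kinase. The sequences are from GENCODE M21 transcripts, 57 bases each, 5′ to 3′.
Jak1: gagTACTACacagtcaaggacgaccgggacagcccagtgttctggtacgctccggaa
Jak2: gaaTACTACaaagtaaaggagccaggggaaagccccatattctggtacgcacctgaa
Jak3: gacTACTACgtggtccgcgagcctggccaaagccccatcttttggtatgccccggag
Tyk2: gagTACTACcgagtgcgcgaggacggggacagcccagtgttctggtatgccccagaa
Counted from the start codon, the tandem codons are numbers 1033 and 1034 of Jak1, 1007 and 1008 of Jak2, 976 and 977 of Jak3, and 1074 and 1075 of Tyk2. Compared base by base, the loops were 61.4% (Jak1 and Jak3) to 80.7% (Jak1 and Tyk2) identical, with ends that are alike because the loops were located by them. Over whole coding sequences the kinases were 50.3% (Jak2 and Tyk2) to 55.8% (Jak1 and Tyk2) identical in a global alignment. None of the Jak1 or Jak2 transcripts' 50-base words occurs in another annotated gene. Reads of at least 50 bases from these 2 genes could thus be told from those of their relatives.

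Jak1 encodes the kinase that serves most classes of cytokine receptor. The gene lies on the minus strand of chromosome 4 at 101152367 to 101265282 (mm10 coordinates, as all below). Its counts of 12933, 10527 and 13624 in libraries 1, 2 and 3 come to 421, 419 and 454 CPM. Library 3 was the highest, and the mean was 431 ± 19.3 CPM, rank 273 of all gene entries.

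Jak2 encodes the kinase of the receptors for erythropoietin and interleukin-3. It lies on the plus strand of chromosome 19 at 29251828 to 29313080. Its values were 108, 128 and 133 CPM in libraries 1, 2 and 3 (3327, 3206 and 4009 counts). Library 1 was the lowest, 0.829 times the mean of the others.

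Jak3 encodes the kinase that binds the common gamma chain, the receptor subunit shared by several lymphocyte interleukins. It lies on the plus strand of chromosome 8 at 71676296 to 71690575. It was at 77.8, 72.7 and 64.3 CPM (2389, 1824 and 1930 counts), highest in library 1 and lowest in library 3. Its exons overlap those of the hormone gene Insl3 on the same strand by 404 bases. Insl3 was counted 110, 39 and 31 times, and how many reads of the shared stretch were left uncounted as ambiguous is unknown.

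Tyk2 encodes the kinase of interferon and interleukin-12 receptors. It lies on the minus strand of chromosome 9 at 21104068 to 21131243. It was at 52.8, 48.7 and 48.7 CPM (1622, 1222 and 1463 counts), the narrowest gap between libraries 2 and 3 of the 4 kinases. An annotated antisense gene overlaps its exons by 554 bases. No source used here gives the strand setting of the counting, so antisense reads in that stretch cannot be told from those of Tyk2.

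**Figure D1:**
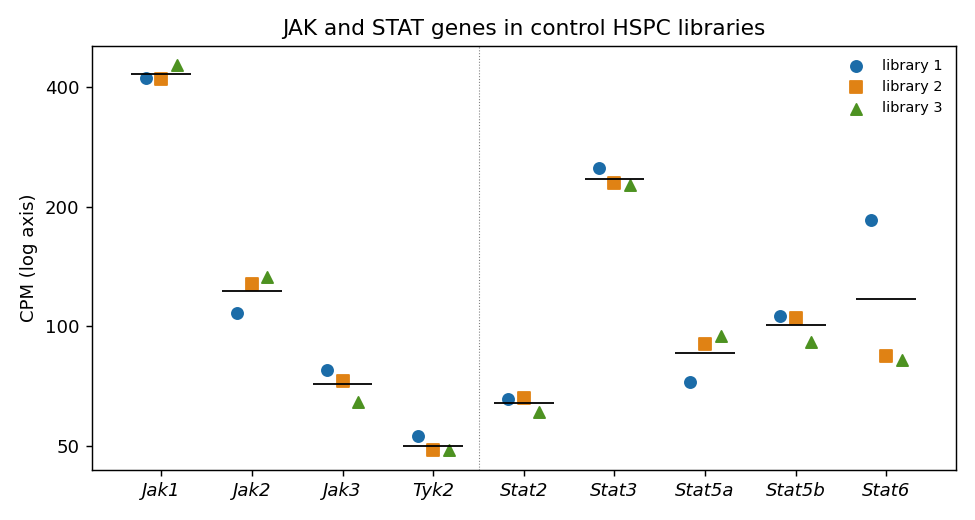
CPM on a log axis for the 4 JAK and 5 STAT genes in the 3 control libraries (points), with the mean of each gene as a bar. The libraries sit close together for each gene but Stat6, which was at 185 CPM in library 1 and at 84.1 and 82.4 CPM in libraries 2 and 3.

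Per kilobase of annotated exons, Jak1 made up most of the JAK transcripts. Its share of the length-scaled JAK sum was 57.1%, 55.7% and 57.9% in libraries 1, 2 and 3. Jak2 held 21.1%, 24.4% and 24.5%, Jak3 held 14.2%, 13.0% and 11.1%, and Tyk2 held 7.54%, 6.81% and 6.55%. The order of the 4 kinases was the same in all 3 libraries. The level of Jak1 per kilobase exceeded that of Jak2 by 1.27 on the log2 scale (SD 0.13), that of Jak3 by 2.12 (SD 0.19) and that of Tyk2 by 2.95 (SD 0.11), each in 3 of 3 libraries. By exact permutation of signs (two-sided), p was 0.25 for each, also after Benjamini-Hochberg adjustment over 4 pairs, and 0.25 is the smallest p that 3 libraries allow. The gap between Jak1 and Jak2 was 1.83 with the length of the longest annotated transcript.

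The STAT genes lie partly together. Stat5b (chromosome 11, 100780731 to 100850724, minus strand), Stat5a (100859351 to 100885169, plus strand) and Stat3 (100885098 to 100939540, minus strand) follow each other with no other protein-coding gene between them. Stat5b and Stat5a are 8626 bases apart, and Stat5a and Stat3 overlap by 72 bases at their ends. Stat6 (127642986 to 127660957) and Stat2 (128270559 to 128292849) lie on the plus strand of chromosome 10, with 26 protein-coding genes between them.

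Stat3 encodes the factor downstream of gp130 cytokines and of G-CSF. It was at 250, 229 and 227 CPM in libraries 1, 2 and 3 (7670, 5741 and 6811 counts), with a mean of 235 ± 12.7 CPM. Stat2 encodes the partner that carries type I interferon signals together with IRF9. It was at 65.5, 65.9 and 60.9 CPM (2011, 1654 and 1830 counts), and the libraries lay within 1.08-fold of each other.

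Stat5a and Stat5b encode the closely related factors that act downstream of interleukin-3 and interleukin-7. Stat5a was at 72.5, 90.1 and 94.7 CPM (2226, 2262 and 2844 counts), lowest in library 1. Stat5b was at 106, 105 and 91.5 CPM (3246, 2646 and 2748 counts), lowest in library 3. Their sum moved less, at 178, 196 and 186 CPM. Of the STAT5 counts, Stat5b took 59.3% in library 1 (exact Clopper-Pearson 95% interval 58.0 to 60.6), 53.9% in library 2 (52.5 to 55.3) and 49.1% in library 3 (47.8 to 50.5). The intervals do not overlap, but they cover counting error only, and amplified reads are not independent molecules.

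The 2 genes are 84.6% identical over their coding sequences, against 45.9% to 52.1% for every other pair of the 5 STAT genes. The longest run they share without a difference is 324 bases, from coding position 571 to 894 in each. Its first bases are shown because reads that fall wholly inside the run match both genes. The preceding 6 bases are included, and the capital marks the difference just before the run, C570A, with the Stat5a base first and positions counted from the start codon.
Stat5a: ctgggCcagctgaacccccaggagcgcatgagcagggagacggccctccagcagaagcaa
Stat5b: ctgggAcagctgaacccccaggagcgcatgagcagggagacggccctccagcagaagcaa
Of the 50-base words of the transcripts, 8.52% for Stat5a and 11.0% for Stat5b occur in other annotated genes. Both counts are therefore uncertain, by an amount that these shares of words do not measure. Per kilobase of exons Stat5b lay above Stat5a by 0.58 on the log2 scale (SD 0.29, 3 of 3 libraries, exact sign-flip p = 0.25, the smallest possible). The direction rests on the length used: scaled by the longest annotated transcript, the difference was -0.15 (exact p = 0.5).

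Stat6 encodes the factor of interleukin-4 and interleukin-13 signalling, best known from T helper cells. Its counts of 5696, 2110 and 2476 in libraries 1, 2 and 3 come to 185, 84.1 and 82.4 CPM. Library 1 was 2.21-fold above library 2 and 2.25-fold above library 3. Libraries 2 and 3 differed by 0.03 on the log2 scale, and a chi-square test between those 2 libraries gave p = 0.5094 (0.6028 adjusted over all genes). Of the 12965 genes tested, 1.38% were over 2-fold higher in library 1 than in both other libraries, and Stat6 was the 1 of 9 members among them. None of the 9 members was over 2-fold lower there, as were 2.55% of genes.

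The spread of Stat6 was large for its abundance, but it did not pass the test over all genes. An F test of each gene's dispersion over the abundance trend in edgeR's quasi-likelihood fit placed Stat6 at rank 12 of 12965 genes, with a Benjamini-Hochberg adjusted p of 0.2793. By this test 0 of 9 members and 0.00771% of genes (only 1 gene) were called. At an unadjusted p under 0.05 it took 1 member, Stat6, and 4.54% of genes. DESeq2 marked 30 genes as dispersion outliers, with Stat6 the 1 member among them. Adjusted p-values of Stat6 under the edgeR alternatives ran from 0.01702 without library 3 to 0.9991 without library 1, and the value was 0.01932 with no filter on low counts. The 8 other members had adjusted p-values of 0.982 or more.

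**Figure D2:**
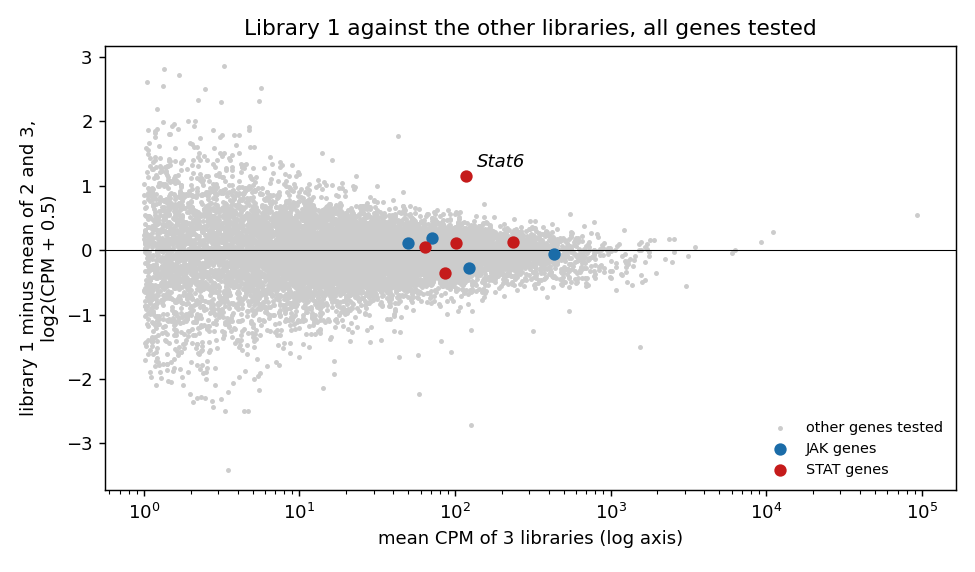
Difference of library 1 from the mean of libraries 2 and 3, in log2(CPM + 0.5) on gene totals, against mean CPM on a log axis, for the 12965 genes tested (grey), the JAK genes (blue) and the STAT genes (red). Stat6 lies at 1.15, and the other members lie between -0.35 and 0.19.

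The Stat6 difference was as large under the other scalings to genes. The fold was 2.31 with TMM factors, 2.31 with DESeq2 size factors and 2.32 on totals without Rn45s. Scaled to the ERCC spike-ins, RNA standards whose added amounts no label gives, the median gene lay 1.04 lower in library 1 on the log2 scale. On that scale Stat6 was 1.09-fold above the mean of the others and 1.20 (log2) above the median gene, and library 3 was its highest library.

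No 50-base word of the Stat6 transcripts occurs elsewhere in the annotation. Reads of at least 50 bases from this gene could thus be told from those of other annotated genes. The Stat6 exons overlap those of Nab2, on the opposite strand, by 40 bases, a stretch shorter than such a word. Nab2 was at 14.7, 19.5 and 14.2 CPM in libraries 1, 2 and 3. Sums of cell type marker lists, that of stem and progenitor genes among them, also differed between the libraries. In bulk RNA such sums do not show which cells hold the transcripts, the sorted progenitors included. The 10 neutrophil and granule genes, all at 1 CPM or more, summed to 977, 1877 and 2998 CPM in libraries 1, 2 and 3, lowest where Stat6 was high. The 8 T and NK cell markers, 2 of which reached 1 CPM, summed to 19.4, 8.01 and 11.9 CPM, and none was at 0 in all libraries. In the same order, B lineage markers summed to 55.8, 60.1 and 65.1 CPM, and macrophage and dendritic markers to 47.3, 52.7 and 74 CPM. Megakaryocyte markers summed to 41.4, 58.6 and 55.4 CPM, and stromal and endothelial markers to 122, 127 and 110 CPM. Erythroid markers summed to 23.3, 17.8 and 15.9 CPM, and stem and progenitor markers to 2976, 2745 and 2586 CPM. The part of Nab2 reads, of these cell types and of Rn45s in the Stat6 result was not tested.

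The promoter of Stat6 is shown because it holds a form of the octamer that Capicua binds, TCAATGGA, in capitals. It is the plus strand at chr10:127642736-127642985, the 250 bases before the start site, from RefSeq (GRCm38.p6).
Stat6: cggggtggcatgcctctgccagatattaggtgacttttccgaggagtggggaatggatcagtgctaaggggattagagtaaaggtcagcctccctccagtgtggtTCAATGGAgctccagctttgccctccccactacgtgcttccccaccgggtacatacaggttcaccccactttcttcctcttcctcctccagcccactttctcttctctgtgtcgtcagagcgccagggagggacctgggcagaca
All 9 members were matched, with 11 promoters of 250 bases before and 50 after a start site, since Stat5a and Stat5b have 2 each. The octamer forms TGAATGAA, TGAATGGA, TCAATGAA and TCAATGGA were searched on both strands. This match, which begins 145 bases before the start site, was the 1 found in the 11 promoters, and 3.84% of all 32851 promoters hold at least 1 form (0.670% hold TCAATGGA). The match is a description of the sequence and does not show binding.

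The STAT binding motif itself was also searched. The form TTCNNNGAA was in 0 of the 11 promoters and in 8.30% of all promoters. The form TTCNNNNGAA was in 1, that of Stat2, and in 6.95% of all. The Stat2 match is shown in capitals with 10 bases on each side, on the plus strand at chr10:128270278-128270307.
Stat2: tcagtttcctTTCCCTAGAActcacggttc
The promoters differ in base composition. GC content was 82.7% at the upstream start of Stat5b and 81.0% at Jak2, with 50 and 44 CpG pairs, against 57.3% and 8 pairs at Stat6 and a median of 52.7% and 7 pairs over all promoters.

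All 9 members differed between libraries beyond read-counting noise by the chi-square test (adjusted p from under 1e-300 for Stat6 to 0.04477 for Tyk2), but so did 82.6% of the genes tested. Without library 1, the members called were Jak1, Jak3, Stat2 and Stat5b, and 6660 of 12963 genes were called. Without library 3, the 5 called were Jak2, Jak3, Stat3, Stat5a and Stat6, and 8347 of 12956 genes were called. The median fold of the highest over the lowest library was 1.15 for the members and 1.29 for all genes tested. Stat6 was the 1 of 9 members past 1.5-fold, against 28.2% of genes. Neither comparison was matched for abundance, as the median of mean CPM was 101 for the members and 25.9 for all genes tested. On gene totals library 1 was the highest for 5 members (Jak3, Tyk2, Stat3, Stat5b and Stat6; 31.9% of genes) and the lowest for 2 (Jak2 and Stat5a; 44.3% of genes). Scaled to spike-ins, which lowers every gene alike in library 1, it was the highest for 0 of 9 members and for 1.16% of genes.

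**Figure D3:**
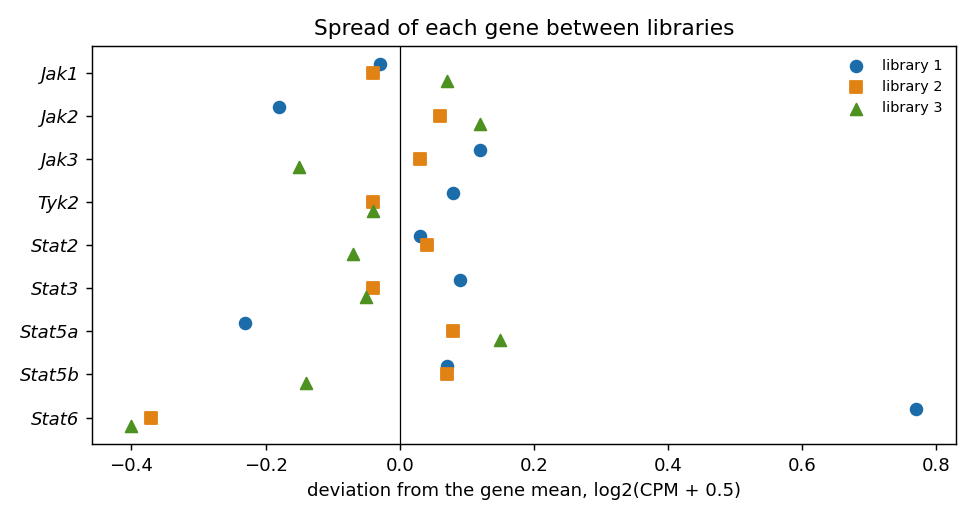
Deviation of each library from the mean of the gene, in log2(CPM + 0.5) on gene totals, for the 9 genes in the 3 libraries. Stat6 in library 1 is at 0.77, Stat5a and Jak2 in library 1 are at -0.23 and -0.18, and the other points lie between -0.40 and 0.15.

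Genes of similar pattern were sought among the 65 expressed pathway genes, by the root mean square difference of log2 deviations over the 3 libraries. The nearest to Stat6 was Ghr, the growth hormone receptor gene, at 16.2, 7.17 and 6.49 CPM (difference 0.047). For Jak1 it was Csf2ra, a receptor gene for GM-CSF (0.002), and for both Tyk2 and Stat3 it was Cbl, a ubiquitin ligase gene (0.004 and 0.009). For both Jak2 and Stat5a it was the interleukin-15 receptor gene Il15ra (0.030 and 0.024), and for Jak3 the interferon receptor gene Ifnar1 (0.022). For Stat2 it was Socs4, of the SOCS inhibitor family (0.020), and for Stat5b the interleukin-27 receptor gene Il27ra (0.012). With only 3 libraries, genes outside the lists lay as near too. Of the 12964 other genes, 5 (Jak1) to 329 (Jak2) lay at least as near to a member as its nearest pathway gene, that gene included. For Stat6 the number was 7.

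Across genes, levels were compared per kilobase of annotated exons. The order was Jak1 at 59.7 ± 2.67 CPM per kilobase, Stat6 at 26.7 ± 13.4, Stat3 at 24.7 ± 1.33, Jak2 at 24.5 ± 2.62, Stat5b at 18.2 ± 1.46, Jak3 at 13.4 ± 1.27, Stat5a at 12.0 ± 1.65, Stat2 at 10.8 ± 0.464 and Tyk2 at 7.29 ± 0.345 (SD, n = 3). The ranges of the libraries overlapped between Stat6 and Stat3, Stat3 and Jak2, Jak3 and Stat5a, and Stat5a and Stat2. At this length those neighbours did not separate beyond their spread. Stat6 ranked above Stat3 in library 1 only, by 0.67 on the log2 scale, and below it in libraries 2 and 3 by 0.32 and 0.34. The other 4 neighbouring pairs kept 1 order in 3 of 3 libraries. The order rests on the length used, and the overlaps were worked out at this length only. Scaled by the longest annotated transcript, Stat3 held a mean of 31.2% of the STAT sum and Stat6 24%. Stat5a then held 17.6% and Stat5b 15.5%. On annotated exons again, the median member lay at 18.2 CPM per kilobase, against 6.45 for the genes tested that have a length.

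**Figure D4:**
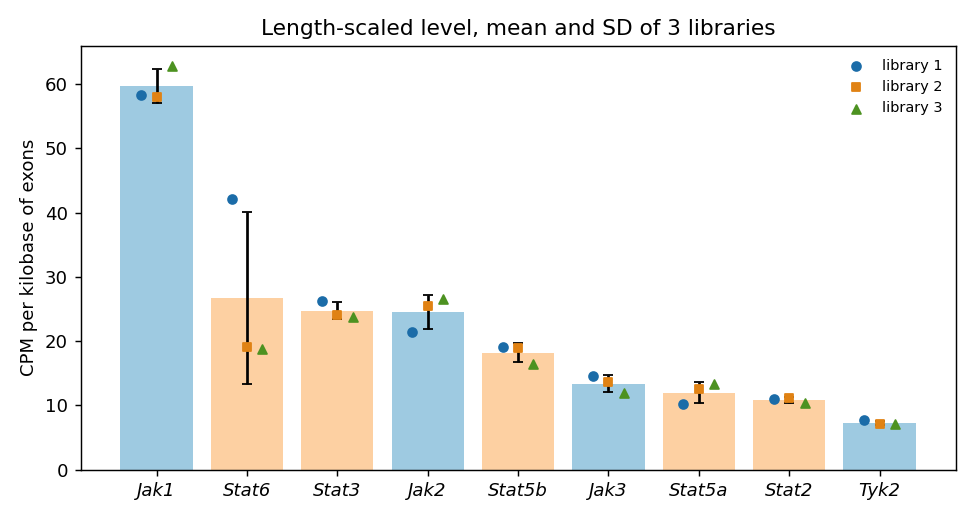
Mean CPM per kilobase of annotated exons (bars, blue for JAK and orange for STAT genes) with SD over 3 libraries and each library as a point. Jak1 stands above the rest, and the wide error bar of Stat6 comes from library 1.

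The receptors that feed these kinases were unevenly expressed. All 10 JAK2-coupled receptor genes reached 1 CPM (median 3.24 CPM per kilobase). The receptor gene for G-CSF, Csf3r, was at 70.1 ± 7.61 CPM per kilobase, above Jak2 itself. Csf2rb, the shared beta chain gene of the GM-CSF and interleukin-5 receptors, was at 14.2 ± 0.229 and the prolactin receptor gene Prlr at 0.0779 ± 0.0495 CPM per kilobase. Of these 10 genes, 8 differed between libraries by chi-square, as did 82.6% of all genes tested, the share against which the counts of the lists below are to be read.

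Of the 9 genes listed as common gamma chain receptors, 8 reached 1 CPM (median 6.39 CPM per kilobase, 7 called by chi-square). The list also holds Crlf2, a receptor gene whose product does not use that chain, and the median is its value. The chain itself, Il2rg, was at 59.8 ± 2.54 CPM per kilobase, against 13.4 ± 1.27 for its kinase Jak3. Il4ra, the interleukin-4 receptor gene upstream of Stat6, was at 9.21 ± 1.11 CPM per kilobase, and its libraries were at 48.8, 62.1 and 55.0 CPM, lowest in library 1. Il21r was at 7.01 ± 0.542 CPM per kilobase, and Il9r had 0, 0 and 1 counts.

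Of the 7 gp130-family genes, 5 reached 1 CPM (median 3.42 CPM per kilobase, 5 called). The shared signal chain gene Il6st was at 12.8 ± 0.367, Il27ra at 8.28 ± 0.596 and Il6ra at 7.36 ± 0.462 CPM per kilobase, and Cntfr had no count. Of the 11 genes listed with the interferon, interleukin-10 and interleukin-12 family receptors, 9 reached 1 CPM (median 8.10 CPM per kilobase, 7 called). That list also holds the interleukin-13 receptor gene Il13ra1. The interferon receptor genes Ifnar2, Ifngr1 and Ifnar1 led them at 66.7 ± 4.18, 31.0 ± 2.76 and 18.6 ± 1.86 CPM per kilobase, and Il23r had no count. With 3 counts as the limit that a 0 allows, the libraries could hold 0.0977 to 0.120 CPM unseen, for counting error only.

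Of 20 genes listed as inhibitors of the pathway, 19 reached 1 CPM (median 7.90 CPM per kilobase, 16 called). The phosphatase genes Ptpn6 and Ptpn2, whose products remove phosphate from JAKs and STATs, were at 32.0 ± 1.73 and 27.7 ± 2.15 CPM per kilobase. Pias2 was at 21.4 ± 2.96, and the feedback inhibitor gene Socs1 was the lowest at 0.282 ± 0.153 CPM per kilobase (30, 8 and 35 counts).

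Of 15 STAT target genes, 14 reached 1 CPM (median 9.47 CPM per kilobase, 10 called). The survival gene Mcl1 was at 105 ± 18.3, the cyclin gene Ccnd2 at 34.9 ± 1.84, the kinase gene Pim1 at 27.5 ± 2.92 and Id1 at 0.281 ± 0.178 CPM per kilobase. Other factors also regulate these genes. Of the list genes named, Il2rg, Csf2rb and Csf3r have 27.5%, 12.3% and 10.7% of their 50-base words in common with other annotated genes, so these counts are less certain. Over the 6 lists, 65 of 72 genes reached 1 CPM, 53 were called by chi-square and 0 by the edgeR variability test. The chi-square calls were 81.5% of the 65, near the 82.6% of all genes tested. At an unadjusted p under 0.05 the variability test took 3 of the 65 (4.62%, near the 4.54% of all genes). They were Ghr, the interferon factor gene Irf7 at 22.3, 9.88 and 11.0 CPM, and Junb at 8.92, 12.5 and 20.6 CPM (Irf7 and Junb are named after seeing their values). Of the 65 genes, 2 (3.08%, Ghr and Irf7) lay over 2-fold above both other libraries in library 1, against 1.38% of all genes.

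**Figure D5:**
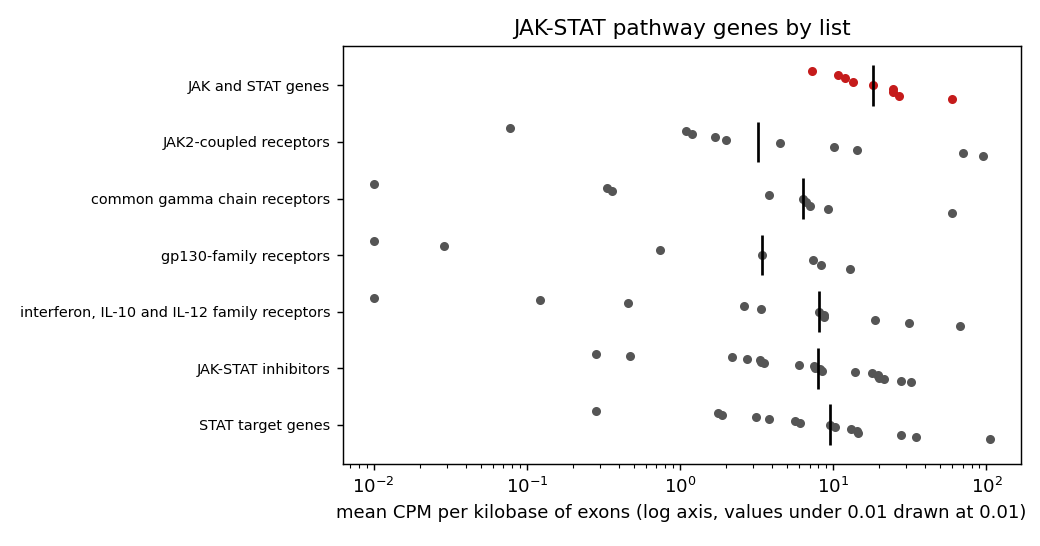
Mean CPM per kilobase of annotated exons on a log axis for the 9 JAK and STAT genes (red) and the genes of 6 pathway lists (grey), 1 point per gene, with the median of each list as a line. The JAK and STAT genes lie between 7.29 and 59.7, while each receptor list also holds genes under 0.4.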

How the data were processed

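RNA of 3 control libraries was measured by sequencing. Per the labels' protocols, RNA went through NuGEN Ovation amplification primed at poly(A) tails and at random, so counts are not independent molecules. The deposited values are raw read counts per gene symbol, without normalization. TopHat2 2.0.9 and the mm10 build, with HTSeq and DESeq2, appear in the submitters' processing notes. No source used here gives the gene model or the strand setting. The 92 ERCC and 5 HTSeq category entries stayed out of library sizes and tests. Gene entries held 34.11% to 40.05% of all counts.

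Counts were scaled to CPM on gene totals, and logs are log2(CPM + 0.5). Exon lengths came from GENCODE M21 (GRCm38, the assembly of mm10), which matched 95.8% of symbols. The chi-square test, the quasi-likelihood fit of edgeR (robust, TMM factors, an intercept as the only term) and Benjamini-Hochberg adjustment (p under 0.05) were run over all genes whose mean reached 1 CPM. Software was R 4.3.3, edgeR 4.0.16, DESeq2 1.42.0, Python 3.11.15, NumPy 2.4.6, SciPy 1.17.1, pandas 2.3.3, Biopython 1.88 and matplotlib 3.10.9. The members, the 6 pathway lists and the marker lists were chosen with earlier results of these data known. The rule for names took all 9 members, the 3 highest and the lowest gene of each list per kilobase, list genes past the variability test and the nearest list gene of each member by pattern. The values of a list gene that this rule would name are not reported here. Alternatives were other scalings, filters, lengths, pseudocounts and leaving out each library. Scaling to spike-ins, and all alternatives for the Stat6 fold, were chosen after the data were seen.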

Additional observations from a re-analysis of the deposited data

Results flagged for a closer look

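The ERCC spike-in entries, which no comparison on gene totals uses, held signal in every library, with 455900, 239355 and 174913 counts in libraries 1, 2 and 3. There were 67.4, 105 and 172 gene counts per spike-in count in that order, so a scaling to spike-ins moves every gene between libraries. The labels do not give the amounts added.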

How the results depend on the processing

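Leaving out 1 library moved the number of members called by chi-square to between 4 and 9, and the number called by the edgeR variability test to between 0 and 1. The latter was also 1 with no filter on low counts (16 of 17328 genes) and 1 by DESeq2 dispersion outliers (30 of 12965 genes). The member was Stat6 each time. Over all genes, chi-square called 6660 of 12963 without library 1, 8709 of 12941 without library 2 and 8347 of 12956 without library 3. With all 3 libraries it called 10707 of 12965. The variability test called 33, 9 and 9 genes in that order, against 1 gene with all 3 libraries. The Stat5b to Stat5a difference turned to -0.15 with the longest annotated transcript as length, and the cause lies in that length. On spike-in totals, where the median gene lay 1.04 (log2) lower in library 1, 0 members and 1.16% of genes were highest there. The Stat6 fold was then 1.09, and Stat6 remained 1.20 (log2) above the median gene. Of 54 alternatives to the members' mean CPM, 48 stayed within 1 SD, and the 6 others were on totals without Rn45s. Of 45 alternatives to the family shares, 10 moved by more than 1 SD, all with another length. Both sets include leaving out each library, which cannot move a mean of 3 libraries by 1 SD. Those alternatives had to stay within 1 SD and say nothing about stability. The other differences between pairs kept their direction under every alternative run. No paired analysis was possible because there is only 1 group. With 3 libraries no sign-flip test can pass 0.05, so those p-values say nothing about stability.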
